A study of Mus musculus with 2 samples.

Results

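The tetraspanins other than uroplakins were described in the developing mouse ureter. They comprised 9 genes, Tspan1, Tspan8, Tspan13, Tspan15, Cd9, Cd63, Cd81, Cd82 and Cd151, of 29982 genes on the array. They were selected by name with earlier results of the same arrays known, so their ratios are a description and carry no test. The arrays held 13 probes for them, and each gene was represented by its brightest probe. The question behind the comparison was which gene expression depends on Pparg in the ureteric epithelium (UE). Pparg encodes a ligand-dependent nuclear receptor.

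RNA of dissected ureters at E16.5 was hybridized to 2 dual-color oligonucleotide arrays. The embryos were of the NMRI strain and the ureters were sorted by sex and pooled. Array 1 compared a female Pparg-cKO pool with a female control pool, and array 2 compared a male Pparg-cKO pool with a male control pool. Pparg-cKO embryos were Pax2-cre/+;Pparg(fl/fl). Controls were Pparg(fl/?) littermates without cre, so floxed Pparg alleles were present in the controls too. Pax2-cre recombines in the nephric duct and its derivatives, including the UE, whereas the mesenchyme of the ureter keeps Pparg. A pool gives no information on single embryos, and in whole ureters fewer cells of a type and less RNA per cell cannot be told apart. Dyes were swapped between the arrays, so that dye and sex changed together and cannot be told apart.

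The sources give the direction of the ratio in opposite ways. RNA A denotes the RNA in the red channel of array 1 and the green channel of array 2, and RNA B denotes the other RNA. RNA A is the control by the dye labels of both arrays. It is Pparg-cKO in the direction that the study itself uses: the sample titles set Pparg-cKO against control, and the gene lists of the study for increased and decreased expression in the mutant run the same way as RNA A over RNA B. RNA A is therefore likely Pparg-cKO, on the basis of the titles and those lists and against the dye labels. The deposited fold changes followed RNA A over RNA B (Pearson r = 0.997 on either array across 18540 bright probes, which are not independent replicates). The targeted gene Pparg reached a signal of 11295 in RNA A against 7430 in RNA B of the female pools, and of 12888 against 7872 in the male pools. Its log2 ratio of RNA A over RNA B was 0.66 ± 0.08 (SD, n = 2 arrays). The study found by in situ hybridization a Pparg mRNA without the floxed exons in the mutant UE, at an increased level at a later fetal stage. A probe outside those exons could thus read Pparg in Pparg-cKO pools too. The array probe lies at chr6:115440213-115440272 (mm9). Whether this is in the floxed exons was not determined, so that the Pparg ratio does not settle the labels. All ratios below are RNA A over RNA B, with RNA A as Pparg-cKO in the direction of the study and as control by the dye labels.

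Tetraspanins are small proteins that cross the membrane 4 times and carry a small and a large extracellular loop. They gather integrins, immunoglobulin superfamily proteins and membrane proteases into microdomains of the plasma membrane and take part in the sorting of cargo to endosomes and exosomes. In the urothelium the best known members are the uroplakins UPK1A and UPK1B, which pair with other uroplakins in the apical plaques of superficial (S) cells. The tetraspanins described here are not plaque proteins.

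The probes on which the results turn are shown by their first 30 of 60 bases, written 5′ to 3′ as in the array files. The Tspan1 probe is shown because Tspan1 alone among the 9 genes passed the filter on fold and signal. The Tspan15 and Cd82 probes are shown because probes of the same gene gave different ratios. The probes of Cd151 also gave different ratios, and their bases are not shown. Positions are those of the files on build mm9, and all 6 probes shown match the minus strand. The exon or UTR of each probe was not determined, since the gene listing at hand is of another build.
Tspan1, chr4:115835249-115835308: aaggcacttacagcctgggcattttctaac
Tspan15 probe 1, chr10:61648563-61648622: ctaaaaacccaacagaatgaccctcaaaat
Tspan15 probe 2, chr10:61652579-61654248: ggggtgccctacacctgctgcatcaggaac
Cd82 probe 1, chr2:93259268-93259327: gggggaggggttccatacactcatctctgg
Cd82 probe 2, chr2:93260018-93260077: tatgtttgtgccggtacattcattctgaag
Cd82 probe 3, chr2:93274019-93274078: gtgatcctgggcttcggggtgtggattctt
The alignment of Tspan15 probe 2 has a gap of 1610 bases, so that this probe spans an intron, whereas the other 5 lie in an unbroken stretch of the genome.

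Tspan1, which encodes a tetraspanin of secretory and glandular epithelia, was about 3-fold brighter in RNA A on both arrays. Its processed signal was 184 in RNA A and 60.0 in RNA B of the female pools. In the male pools it was 211 in RNA A and 68.4 in RNA B. Both RNA A pools lay above both RNA B pools, and the 4 spots of a pool did not overlap with those of the other RNA on the same array. The log2 ratio was 1.62 on array 1, with a spot SD of 0.04, and 1.63 on array 2, with a spot SD of 0.19. The mean log2 ratio was 1.62 ± 0.0068 (SD, n = 2 arrays), a 3.07-fold difference. The SD between the arrays was smaller than the SD between the spots of either array.

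The filter kept genes that differed 1.5-fold or more toward the same RNA on each array, where the brighter RNA had to reach a signal of 100 each time. Of all 29982 genes, 47 (0.157%) passed toward RNA A and 69 (0.23%) toward RNA B. Of the 9 tetraspanins, 1 passed toward RNA A and 0 toward RNA B. Since the genes were chosen with this contrast known, nothing is read from that share. Among the 21429 genes well above background, Tspan1 ranked 11 by mean log2 ratio toward RNA A. The signal of Tspan1 was modest, and at a threshold of 200 it no longer passed, because RNA A gave 184 on array 1. All spots of Tspan1 were well above background in both RNAs.

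**Figure D1:**
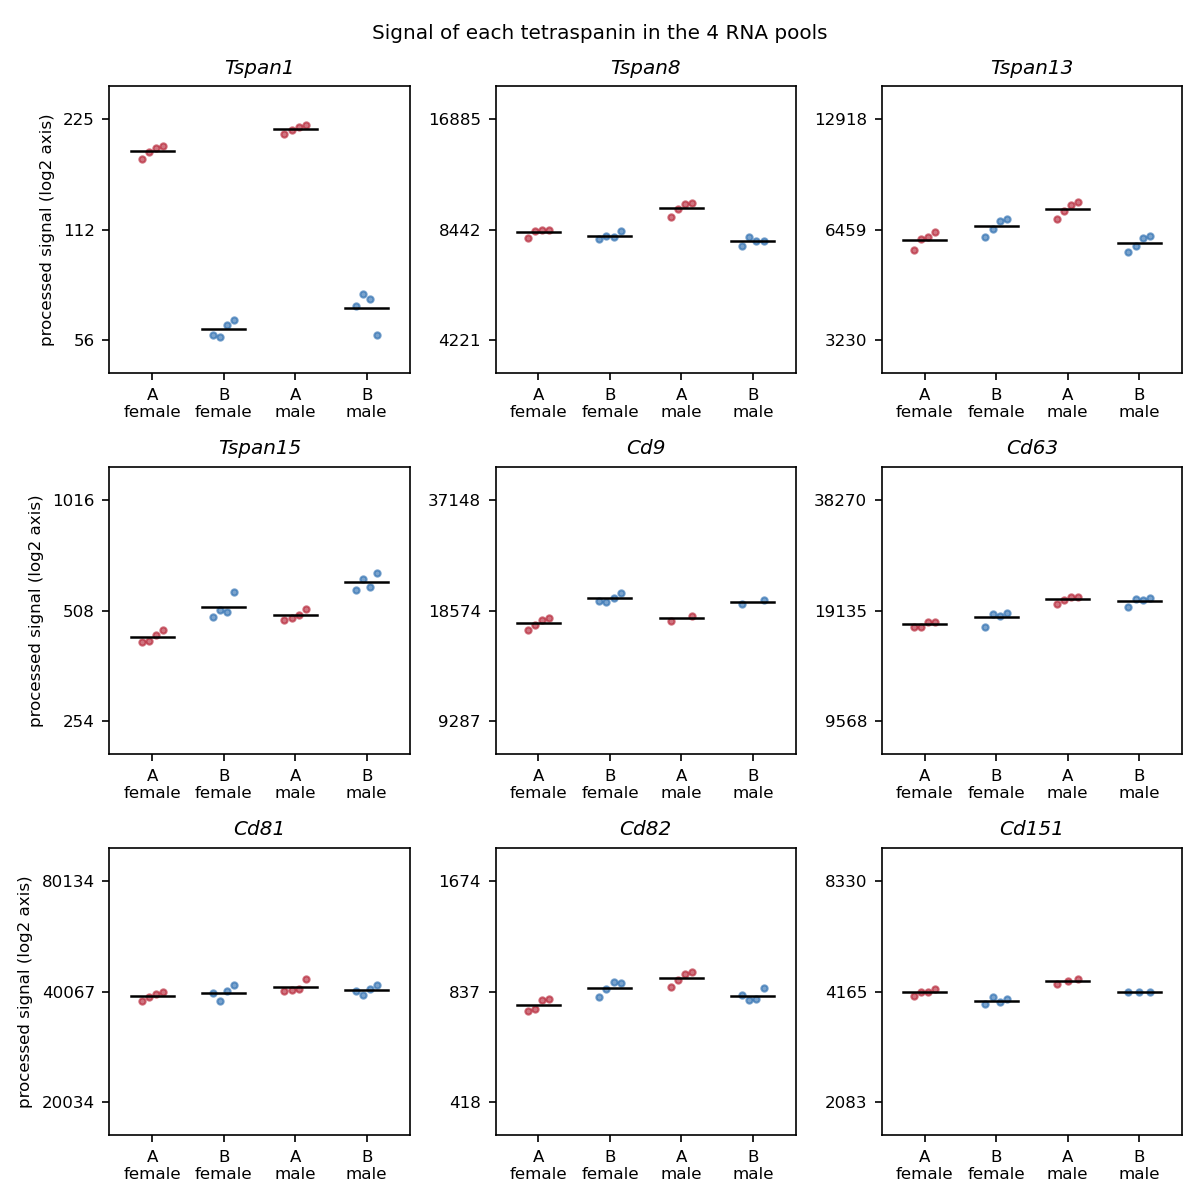
Processed signal (log2 axis, arbitrary units) of each tetraspanin in RNA A (red) and RNA B (blue) of the female pools (array 1) and the male pools (array 2). Points are unflagged spots and bars their geometric means; all panels cover the same range of folds. Tspan1 at 184 and 211 in RNA A stood above 60.0 and 68.4 in RNA B, and the other genes differed by less than 1.5-fold.

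The ratio of Tspan1 was also measured before any dye normalization. From mean signals minus local background, an alternative chosen after seeing the data, the log2 ratio was 1.26 for the female pools, 2.10 for the male pools and 1.68 in the mean. The median over all genes was then -0.28 on array 1, 0.55 on array 2 and 0.14 in the mean, and Tspan1 lay 1.54 above the median of the mean. The arrays thus differed in this setting over all genes and not in Tspan1 alone. With normexp background correction and loess the mean was 1.34. Tspan1 stayed on the side of RNA A and past 1.5-fold under these settings.

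Of the other epithelial tetraspanins, Tspan8 and Tspan13 were bright in all pools and within 1.5-fold between the RNAs. Tspan8, a cell surface tetraspanin of gut and other epithelia, had a signal of 8294 in RNA A against 8098 in RNA B of the female pools. In the male pools it had 9642 against 7844. Its log2 ratio was 0.03 for the female and 0.30 for the male pools, with a mean of 0.17 ± 0.19 (SD, n = 2 arrays), so that the mean was smaller than the spread between the arrays.

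Tspan13 turned between the arrays. Its signal was 6062 in RNA A and 6585 in RNA B of the female pools. In the male pools it was 7334 in RNA A and 5946 in RNA B. The log2 ratio was -0.12 in the former and 0.30 in the latter, and the spot SDs were 0.02 and 0.01. The pools of RNA A and RNA B overlapped, and the mean of 0.09 ± 0.30 (SD, n = 2 arrays) was within the spread between the arrays.

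Tspan15 belongs to the tetraspanins that guide the metalloprotease ADAM10 to the cell surface. Its brightest probe, probe 1 of those shown above, gave 430 in RNA A against 518 in RNA B of the female pools. In the male pools it gave 493 against 607. Both RNA A pools were below both RNA B pools. The log2 ratio was -0.27 and -0.30, with a mean of -0.28 ± 0.02 (SD, n = 2 arrays), a 1.22-fold difference that did not reach the fold of the filter. Probe 2, which spans the intron, gave 377 in RNA A against 360 in RNA B of the female pools and 364 against 382 in the male pools. Its log2 ratios were 0.07 and -0.07, each within about 1 spot SD of 0, since the spot SDs were 0.09 and 0.07. The lower signal in RNA A was seen with probe 1 and not with probe 2.

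Cd9 and Cd81 encode broadly expressed tetraspanins that bind the immunoglobulin superfamily proteins IGSF8 and PTGFRN. Cd9 had a signal of 17148 in RNA A against 20043 in RNA B of the female pools, and 17691 against 19575 in the male pools. RNA A was lower on both arrays, with log2 ratios of -0.23 and -0.15 and a mean of -0.19 ± 0.06 (SD, n = 2 arrays), a 1.14-fold difference. Only 2 of 4 Cd9 spots were kept on array 2. Without dye normalization the mean log2 ratio of Cd9 was -0.02, which was -0.16 relative to the median of all genes in that setting.

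Cd81 gave 38999 in RNA A against 39773 in RNA B of the female pools and 41098 against 40430 in the male pools. Its mean log2 ratio was -0.0024 ± 0.04 (SD, n = 2 arrays), and its ratio on either array did not exceed the spot SD. Cd63, which encodes a tetraspanin of late endosomes and exosomes, gave 17541 in RNA A against 18338 in RNA B of the female pools and 20526 against 20306 in the male pools. Its log2 ratios were -0.06 and 0.02, with a mean of -0.02 ± 0.06 (SD, n = 2 arrays). For both genes the pools of RNA A and RNA B overlapped.

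Cd82, also known as a metastasis suppressor, had 3 probes. Probe 1 gave 770 in RNA A against 857 in RNA B of the female pools, and 911 against 816 in the male pools. Its log2 ratios of -0.15 and 0.16 had opposite signs, with a mean of 0.0024 ± 0.22 (SD, n = 2 arrays). Probes 2 and 3 turned the other way, with log2 ratios of 0.14 and 0.20 for the female pools and -0.15 and -0.36 for the male pools, respectively. The mean over both arrays was between -0.08 and 0.0024 for the 3 probes. A difference that switches sign with the array, and does so in opposite ways for probes of the same gene, was thus larger than any shared difference between RNA A and RNA B.

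Cd151 encodes the tetraspanin that binds laminin-binding integrins at the basal side of epithelial cells. Its brightest probe gave 4145 in RNA A against 3936 in RNA B of the female pools, and 4444 against 4152 in the male pools. RNA A was slightly higher on both arrays, with log2 ratios of 0.07 and 0.10 and a mean of 0.09 ± 0.02 (SD, n = 2 arrays). The other probe gave log2 ratios of 0.18 and -0.13 and did not keep the sign. Cd151 was therefore within 1.5-fold on both arrays with either probe.

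**Figure D2:**
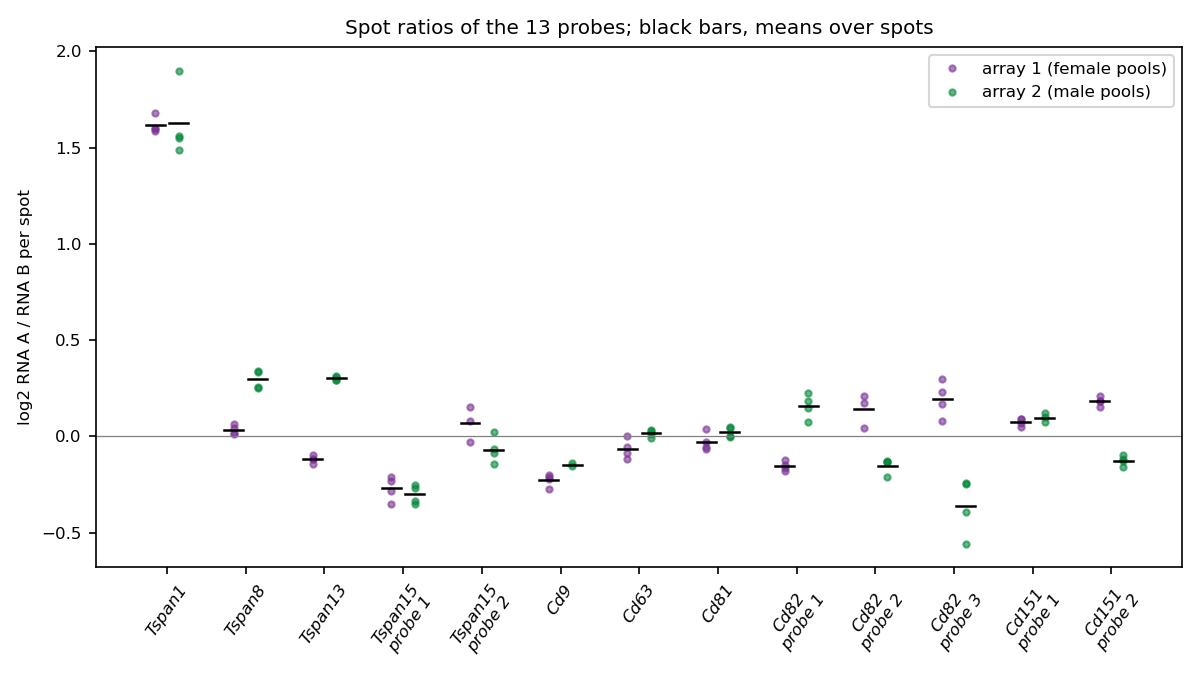
Log2 ratio of RNA A over RNA B per spot for the 13 probes of the 9 tetraspanins on array 1 (purple) and array 2 (green), with means over unflagged spots as black bars. Probe numbers run from the brightest to the dimmest probe of a gene; Tspan1 at 1.62 and 1.63 stood apart, and the probes of Cd82 took opposite signs between the arrays.

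Apart from Tspan1, the 8 tetraspanins had mean log2 ratios between -0.28 and 0.17. Of all 21429 genes well above background, 88.9% had a mean log2 ratio of at most 0.3 in size, so that these 8 genes were placed where most genes were. The ratio had the same sign on both arrays for 5 of the 9 tetraspanins and for 39.0% of all genes. The remaining 4, Tspan13, Cd63, Cd81 and Cd82, were lower in RNA A of the female pools and higher in RNA A of the male pools, as were 6989 of the 21429 genes. For Cd81 on both arrays and Cd63 on array 2, the ratio was within the spot SD. The other Cd82 probes turned the opposite way. Across the 21429 genes the ratios of the 2 arrays had a Pearson correlation of -0.05 and a Spearman correlation of -0.25, which describes the arrays and not independent replicates.

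For comparison, the tetraspanin uroplakin Upk1a had log2 ratios of -1.42 and -1.22 and Upk1b of -0.55 and -0.67. Both had less signal in RNA A, the opposite side from Tspan1.

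**Figure D3:**
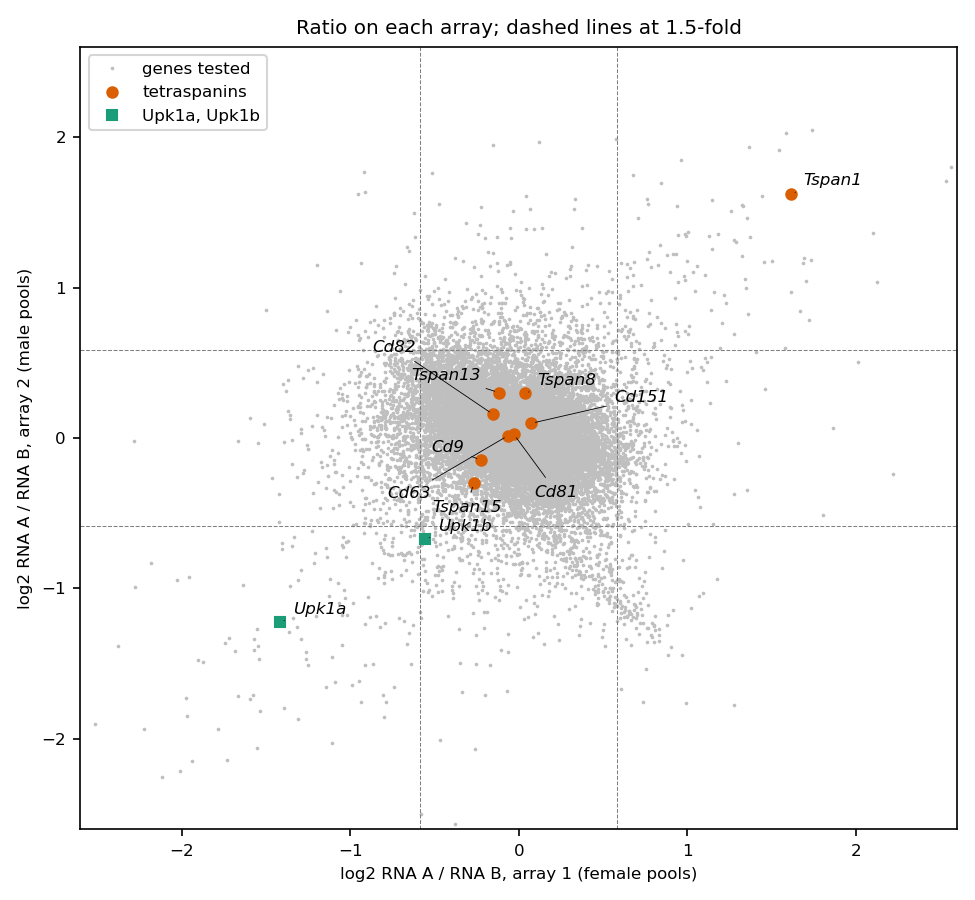
Log2 ratio of RNA A over RNA B on array 1 (female pools, x axis) against array 2 (male pools, y axis) for the genes well above background (gray), the 9 tetraspanins (orange) and Upk1a and Upk1b (green); 11 genes lie outside the axes. Dashed lines mark 1.5-fold; Tspan1 lay beyond them toward RNA A and Upk1a toward RNA B, and 8 tetraspanins lay inside.

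The wider family was read from a list of 20 further tetraspanins. Of these, 18 were well above background, and Prph2 and Tspan10 were not well above background. None passed the filter in either direction. limma was fitted to the 2 ratios of all 21429 genes, and with Benjamini-Hochberg adjustment at 0.05 it called 27 genes (0.126%) toward RNA A and 40 (0.187%) toward RNA B. It called 0 of the 18 tetraspanins, and 0 had an unadjusted p under 0.05, beside 810 of all 21429 genes. At that share, 0 of 18 says little about these tetraspanins. Their median mean log2 ratio was 0.0043, beside 0.0067 over all genes.

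The highest mean ratios of that list were found for Cd53, Tspan6 and Cd37. Cd53, a pan-leukocyte tetraspanin, gave 284 in RNA A against 169 in RNA B of the female pools and 259 against 221 in the male pools. Its log2 ratios were 0.75 and 0.23, so only array 1 exceeded 1.5-fold (limma, unadjusted p = 0.051, adjusted p = 1.00). The macrophage markers Csf1r, Adgre1 and Cd68 gave summed signals of 3481 in RNA A against 3083 in RNA B of the female pools and 3719 against 3350 in the male pools. The leukocyte marker Ptprc gave 60.3 against 43.9 and 35.4 against 40.2. The mast cell markers Cpa3, Kit and Mcpt4 gave summed signals of 1471 against 948 and of 1323 against 887, and Mcpt4 was not well above background. Among them Cpa3, a mast cell protease, gave 795 against 281 and 651 against 288, past the filter and called by limma toward RNA A. Kit gave 669 against 661 and 667 against 593. The part of these cells in the Cd53 values was not tested. Tspan6 had log2 ratios of 0.31 and 0.14, and Cd37, a tetraspanin of B cells, 0.25 and 0.03.

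The lowest mean ratios were found for Tspan2, Tspan11 and Tspan9. Tspan2, a tetraspanin known from oligodendrocytes, gave 1191 in RNA A against 1374 in RNA B of the female pools and 1168 against 1686 in the male pools. Its log2 ratios were -0.21 and -0.53, while its other probe gave 0.23 and -0.82. Tspan11 was dim, with signals between 23.0 and 32.5, and had log2 ratios of -0.50 and -0.19. Tspan9 had -0.25 and -0.34. These 3 genes were lower in RNA A on both arrays, but none reached 1.5-fold on either array with the brightest probe.

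The partners of tetraspanins were 16 genes, and all were well above background. None passed the filter, limma called 0, and 0 had an unadjusted p under 0.05, beside 810 of all 21429 genes. At that share, 0 of 16 says little about these partners. Their median mean log2 ratio was -0.03. Of the highest, Sdcbp, which encodes the adaptor syntenin that binds CD63 in exosome formation, had log2 ratios of 0.20 and 0.19. A second bright Sdcbp probe gave 0.64 and -0.0009. Timp1, a ligand of CD63, had 0.34 and 0.02, and the protease gene Adam17 0.03 and 0.24. Of the lowest, Itga3, the integrin chain that pairs with CD151, gave 123 in RNA A against 225 in RNA B of the female pools, a log2 ratio of -0.87, and 174 against 166 in the male pools, a log2 ratio of 0.07. The ESCRT adaptor gene Pdcd6ip had -0.60 and 0.11, and Ptgfrn, a partner of CD9 and CD81, -0.22 and -0.07. The ratio kept its sign on both arrays for 4 of the 16 partners.

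**Figure D4:**
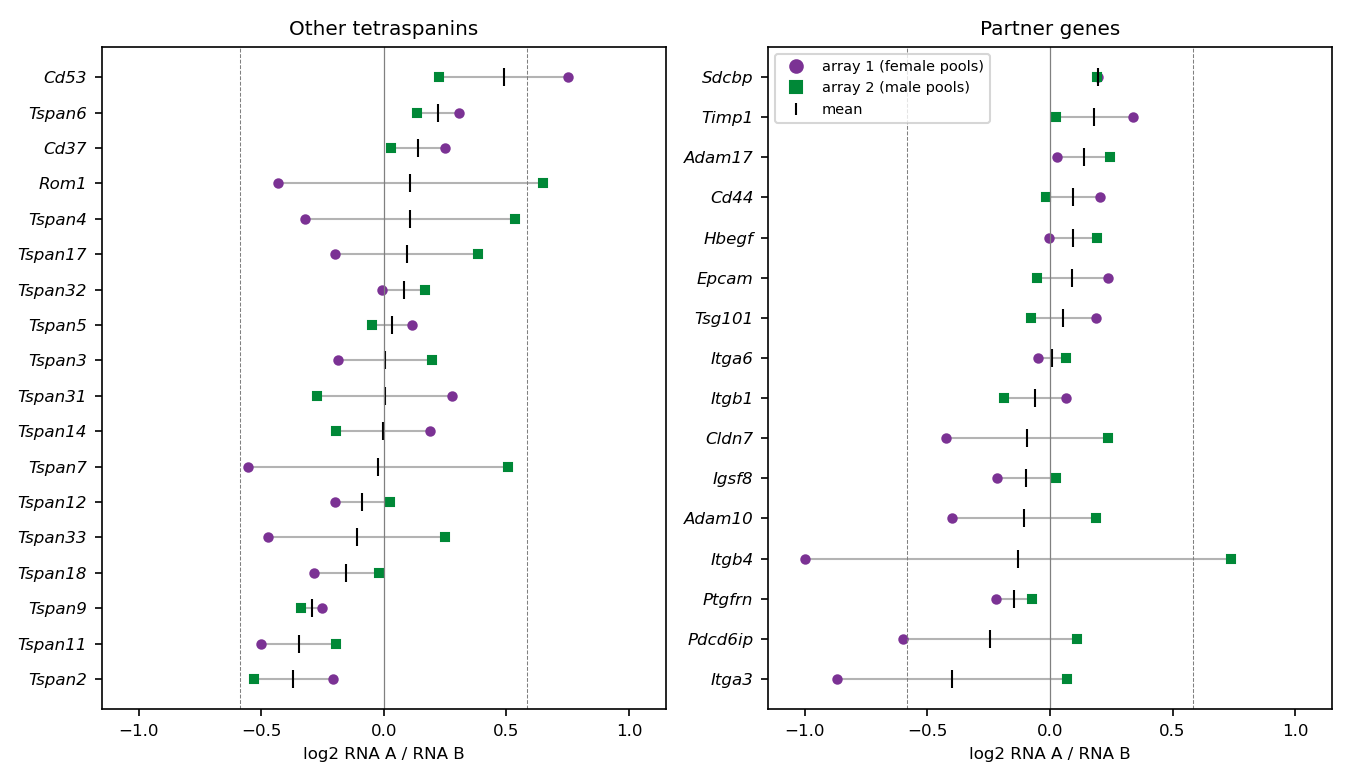
Log2 ratio of RNA A over RNA B on array 1 (circles, female pools), on array 2 (squares, male pools) and their mean (ticks) for 18 other tetraspanins (left) and 16 partner genes (right), ordered by the mean. Dashed lines mark 1.5-fold; no gene lay beyond the same line on both arrays.

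Markers of the cells of the ureter were read beside Tspan1. The superficial markers Upk1a, Upk1b, Upk2, Upk3a, Upk3b and Krt20 were lower in RNA A on both arrays for 6 of 6 genes, and their summed signal was 50739 and 49171 in RNA A and 82481 and 86415 in RNA B. Of the basal markers, Krt5, Krt14 and Krt15 were higher in RNA A on both arrays and Trp63 was not, with summed signals of 4492 and 4797 in RNA A and 3885 and 3812 in RNA B. The epithelial markers Cdh1, Epcam, Krt8, Krt18 and Krt19 gave 58900 and 75416 in RNA A and 86616 and 80635 in RNA B. Of these, Krt8 with log2 ratios of -0.60 and -0.19 and Krt18 with -0.79 and -0.30 were lower in RNA A on both arrays. Cdh1, Krt19 and Epcam changed sign between the arrays, Epcam with 0.24 and -0.05. The smooth muscle markers were lower in RNA A for 4 of 4 genes. The mast cell markers were higher in RNA A, with log2 ratios of the summed signal of 0.63 and 0.58. Of the kidney markers, Slc34a1, a phosphate transporter of the proximal tubule, was dim and was called by limma toward RNA B with a mean log2 ratio of -2.73, the lowest of all genes tested, and Umod was not well above background. The part of these cells in the Tspan1 ratio was not tested.

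The genes with ratios most like those of Tspan1 were searched among 15007 genes with a signal of at least 100. The measure was the Euclidean distance between the pairs of log2 ratios on the 2 arrays. Of the 5 nearest genes, 2 had a symbol and 3 are named in the files by a transcript only. Arhgef38 was the closest, at a distance of 0.30, with log2 ratios of 1.33 and 1.54. The fifth was Krt6a, which encodes a keratin of stratified epithelia, at 0.40 with 1.36 and 1.94. Its signal was 120 in RNA A against 46.7 in RNA B of the female pools and 188 against 49.0 in the male pools. With 2 values per gene, likeness says only that the fold was similar.

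Promoter windows of 250 bases before to 50 after the start site were available from RefSeq (GRCm38.p6) for all 9 genes, as 13 windows. The stretch upstream of Tspan1 is shown because Tspan1 differed between the RNAs and Pparg encodes a DNA-binding receptor. It is the minus strand of chr4:116167599-116167848, 250 bases that end just before the start site, with CG dinucleotides in capitals.
Tspan1 upstream: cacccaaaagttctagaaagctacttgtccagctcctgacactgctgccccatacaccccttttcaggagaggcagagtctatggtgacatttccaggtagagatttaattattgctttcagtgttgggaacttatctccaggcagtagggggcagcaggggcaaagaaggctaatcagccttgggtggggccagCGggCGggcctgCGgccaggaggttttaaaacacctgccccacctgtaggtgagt
PPARG with its partner RXR is known to bind direct repeats of the hexamer AGGTCA with 1 base between. The direct repeat AGGTCANAGGTCA, searched on both strands, was in 0 of the 13 windows and in 0.04% of all 32851 promoters. The single hexamer AGGTCA was in the windows of Tspan8 and Cd151 and in 16.3% of all promoters, and was not in the Tspan1 window. A match or its absence describes these letters in this window and says nothing about binding. The Tspan1 window held 6 CG dinucleotides, beside a median of 7 over all promoters, while Tspan15 held 29, Tspan13 held 26 and Cd81 held 23. In this respect the Tspan1 promoter was like those of Cd63 with 6 and Tspan8 with 5, whose ratios were within 1.5-fold. Cd82 and Cd151 had more than 1 window each, and their counts depended on the start site. They ranged from 4 to 16 for Cd82 and were 20 and 4 for Cd151.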

How the data were processed

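Per the file headers, the authors scanned both arrays on 1 slide, and Agilent Feature Extraction 10.7.3.1 gave the deposited processed intensity of each spot after background subtraction, surrogate values near background and dye normalization (linear and LOWESS). The deposited table holds signed fold changes, a score. The authors' table does not state its direction, whereas the sample titles name Pparg-cKO versus control. It served as an alternative. The stage label of the second channel reads 14.5, titles and protocols 16.5, and the latter was used. Control spots and flagged spots (5705 and 5579) were left out and log2 signals were averaged over spots. RefSeq (GRCm38.p6) named 28328 of 39429 probes, and the other 11101 kept their file name. The brightest probe stood for a gene. A probe was well above background if 0.5 of its spots were. limma 3.58.1 (lmFit, eBayes, R 4.3.3) was fitted to genes that stood well above background in the same RNA on each array. Precision is limited by 2 arrays. That these are separate pools is all the labels give. Filter and limma were run on simulated data with large shifts and less spread between arrays than here. That checks the code and not the calls on these arrays.

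The 9 tetraspanins and all lists were chosen with earlier results of these data known. Named were the 9 genes, Pparg, Upk1a and Upk1b, of each list the genes past the filter or called by limma and the 3 highest and 3 lowest, cell type markers, and the 5 genes nearest to Tspan1. Alternatives were normexp (offset 50) with loess, loess, median centering, the deposited table, flagged spots kept, the mean of all probes, other thresholds, other limma fits and each array left out. Ratios without dye normalization and medians over spots were added after seeing the data. One marker gene is not reported here.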

Additional observations from a re-analysis of the deposited data

Results flagged for a closer look

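The genes looked at were the 9 tetraspanins, the 18 other tetraspanins well above background and the 16 partner genes. For 20 of them the log2 ratio of RNA A over RNA B had opposite signs on the 2 arrays. The ratio exceeded 1 spot SD on the female and on the male array. Each effect rests on 1 array, no test of the difference was made, and sex and dye cannot be told apart. Over all 21429 genes the same was seen for 43.1%, so that the count is near the share of all genes and nothing particular to these genes is read from it. Among the 9 tetraspanins, array 1 minus array 2 was -0.42 for Tspan13, with RNA A lower in the female and higher in the male pools, and -0.31 for Cd82, whose other probes turned the opposite way. In the lists of other tetraspanins and partner genes the difference in log2 ratio was negative for 12 genes: Itgb4 -1.74, Rom1 -1.08, Tspan7 -1.06, Itga3 -0.94, Tspan4 -0.85, Tspan33 -0.72, Pdcd6ip -0.71, Cldn7 -0.66, Adam10 -0.59, Tspan17 -0.58, Tspan3 -0.38 and Itga6 -0.12. It was positive for 6 genes: Tspan5 0.16, Itgb1 0.26, Tsg101 0.26, Epcam 0.29, Tspan14 0.38 and Tspan31 0.55. Itgb4, the integrin chain of hemidesmosomes, had the largest difference of these, lower in RNA A of the female and higher in RNA A of the male pools. These values are of the brightest probe. The other probe of Tspan17 kept its sign, with log2 ratios of 0.11 and 0.22, as did that of Itga6 with 0.02 and 0.77.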

How the results depend on the processing

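Under all 10 alternatives Tspan1 stayed brighter in RNA A. Its mean log2 ratio was 1.34 with normexp and loess, 1.61 with median centering, 1.68 without dye normalization and 1.58 with medians over spots, and it was between 1.62 and 1.63 when either array was left out. The count of tetraspanins past the filter toward RNA A was 0 at a signal of 200, and 1 under the other alternatives. Of the 8 other tetraspanins, Tspan8, Tspan15, Cd9 and Cd151 kept the sign of their mean under all 10, Tspan13 turned with 1 array left out, and Cd82, near 0, turned with 4 settings that use both arrays. Cd63 and Cd81, near 0, turned with 1 array left out and without dye normalization, a setting in which the median over all genes was 0.14. Over all genes the filter counted 193 toward RNA A and 239 toward RNA B with no signal threshold, 128 and 148 with well above background as the criterion, 19 and 29 at 2-fold, and 28 toward RNA A at a signal of 200. With 1 array left out it counted between 301 and 321 toward RNA A and between 488 and 637 toward RNA B. limma called 1 and 0 genes toward RNA A and RNA B with normexp and loess, 9 and 24 with loess on the processed signals, 0 and 0 with the deposited table, 0 and 0 without the filter on dim probes, and 15 toward RNA A with flagged spots kept. With separate channels and no replicate block it called 1 and 0. The cause of these shifts was not tested. The fits of the ratios within an array already hold the array as the block. limma could not be fitted with 1 array. It called 0 of the other tetraspanins and 0 of the partner genes under each alternative run.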
